A study of Mus musculus with 12 samples.

Results

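The layer distribution of an RNA was compared between 2 fields of the mouse hippocampus, CA1 and CA2. For each gene the level in the cell body layer was subtracted from the level in the dendritic layer, once within CA1 and once within CA2, and the CA1 difference was then subtracted from the CA2 difference. The result, called the interaction here, was computed on all 12 arrays of the series, 3 for each region and layer, for 30142 genes with 1 array feature each. Levels are on the authors' normalized log2 scale, so an interaction of -1 means that the dendritic layer's level relative to the cell body layer was 2-fold lower in CA2 than in CA1. Because a gene that simply has a higher level in the cell bodies of one region can also give an interaction, the genes were divided by their cell body layers. In 27231 genes the CA1 and CA2 cell body means lay within 0.5 log2 of each other, which are called matched, and in 2911 they lay further apart.

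All 4 groups came from male Amigo2-EGFP mice of the strain given as Amigo2-GFP C57BL/6J, aged 6 to 8 weeks. This line carries a fluorescent reporter under the regulatory sequences of Amigo2, a gene active in CA2 pyramidal neurons. The groups were the stratum pyramidale (cell body layer) and the stratum radiatum (dendritic layer) of CA1 and of CA2, each cut out by laser capture from 8 µm sections. The labels name 3 mice from separate litters for the study and number the arrays of each group 1 to 3, without stating which mouse a number stands for.

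Pyramidal neurons send their apical dendrites into the stratum radiatum, where most of the RNA of the neuron itself comes from messages carried out of the cell body and translated near synapses. Axons, blood vessels, glia and some interneurons lie in the same captured strip, so its RNA is a mixture. Where levels are given, CA1 or CA2 dendrites and cell bodies are short for the captured layers. CA2 is a small field between CA1 and CA3, known for its resistance to synaptic potentiation in the stratum radiatum, strong calcium buffering, dense perineuronal nets and a part in social memory.

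Several properties of the arrays bear on the values. All CA1 arrays carry run number 938 and all CA2 arrays run number 907, so a region effect and a run effect cannot be told apart. The interaction cancels such a run effect only where it was the same for dendrites and cell bodies. The 4 poly-A control features, RNAs added before labelling, fell by 2.82 from the cell body to the dendritic layer of CA1 and were 0.87 higher in the dendritic layer of CA2, an interaction of 3.69. For the hybridization controls the same value was -0.18 and for the 92 external control RNAs -0.17. Within groups the median SD of a gene was largest among CA1 dendritic arrays, at 0.129, against 0.072 to 0.093 for the other 3 groups. A list of 27 oocyte genes, which neurons and glia should not express, had a mean level of 7.27, 7.31 and 7.22 on 1 CA2 cell body array (number 1) and 2 CA2 dendritic arrays (numbers 2 and 3), against 5.45 to 5.87 on the other 9. Results are therefore also given without these 3 arrays, a fit that leaves 1 CA2 dendritic array, assumed to vary like the other groups. The part of these features in the interaction was not tested.

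The interaction passed the test (limma, adjusted p under 0.05) in 3504 of the 30142 genes, 11.6% of those tested. It was higher in CA2 for 1450 genes (4.81%) and lower for 2054 (6.81%), and in each of the 3504 the sign was the same in all 3 differences between arrays of one number. The genes were chosen by the test on these same arrays, so the shared sign is a description. Quantile normalization of the 12 arrays gave 3895 genes, of which 30.2% were higher, against 41.4% in the values as deposited. The median interaction over all genes was -0.11. The layer difference itself passed in 14122 genes in CA1 (46.9%, with 28.3% up and 18.5% down toward the dendrites) and in 10251 in CA2 (34.0%, with 16.2% up and 17.8% down). Between the regions, 21.1% of genes differed in the cell body layers (10.6% higher and 10.5% lower in CA2) and 30.2% in the dendritic layers (11.6% higher and 18.6% lower), but these differences also hold any shift between the runs. At least 1 log2 was reached by 418 of the genes that passed (1.39% of all tested). Without the 3 arrays with oocyte transcripts 699 genes passed, 612 of them among the 3504. The count also fell by over 1.5 times when a single array was left out: to 1962, 1704 and 2284 without CA1 cell body arrays 1, 2 and 3, to 1854 and 1905 without CA2 cell body arrays 2 and 3, and to 2222 and 2312 without CA2 dendritic arrays 1 and 2.

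Matched cell bodies were found in 2346 of the 3504 genes, which is 8.62% of the 27231 matched genes. Of these, 872 were higher in CA2 (3.2%) and 1474 lower (5.41%). By the sign of the mean layer difference, not its test, 812 of the 1474 lower genes were higher in the CA1 dendrites but lower in those of CA2, 376 were higher in the dendritic layer in both regions, and 279 were lower in it in both. Among the 872 higher genes, 341 had less RNA in the dendritic than in the cell body layer of both regions, 287 had less in CA1 but more in CA2, and 239 had more in both. In 639 of the matched genes the dendritic layers of the regions differed by more than 0.5 log2, and in 1707 neither layer did. The other 1158 genes that passed had cell bodies apart, 39.8% of the 2911 such genes. In 987 of them the dendritic layers lay within 0.5 log2, so the interaction restated the regional difference of the cell bodies. The cell body means enter both the division and the interaction, so the shares of the matched and apart genes are a description. Without the 3 arrays with oocyte transcripts 235 matched genes passed. Leaving out CA1 dendritic array 3 raised the matched count to 3637, and leaving out CA1 dendritic array 1, any of the CA1 or CA2 cell body arrays, or CA2 dendritic array 1 or 2 gave 867 to 1556.

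**Figure D1:**
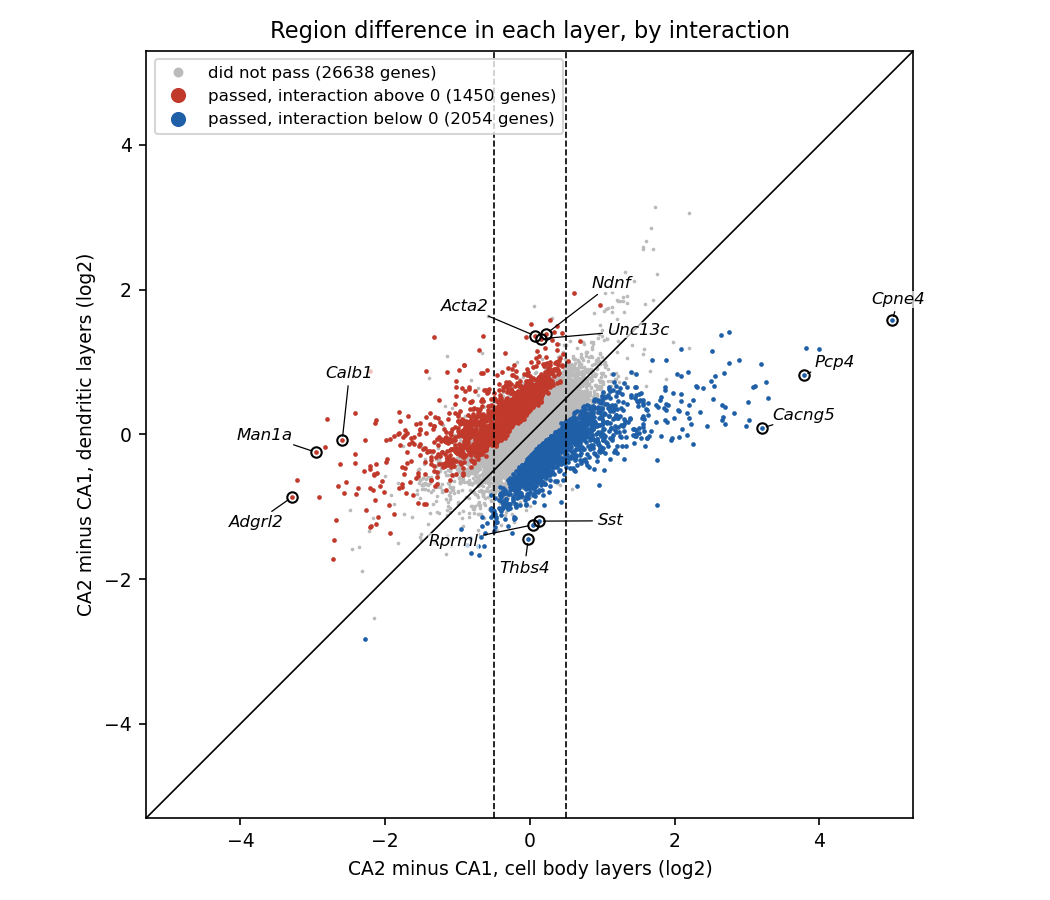
Each point is a gene, with the CA2 minus CA1 difference of the cell body layers on the horizontal axis and of the dendritic layers on the vertical axis, both as log2 differences of means over 3 arrays. Dashed lines mark the 0.5 limit for matched cell bodies and the diagonal an interaction of 0; the 1450 genes in red lie above it and the 2054 in blue below it.

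The matched gene with the most negative interaction was Thbs4, which encodes thrombospondin 4, a secreted glycoprotein of a family that promotes synapse formation. Its levels were 6.57, 6.63 and 6.56 in the CA1 cell body layer and 6.50, 6.65 and 6.54 in the CA2 cell body layer, against 9.25, 9.15 and 9.70 in CA1 dendrites and 8.01, 7.88 and 7.85 in those of CA2. The cell body groups overlapped, while each CA1 dendritic array lay above each CA2 dendritic array. The interaction was -1.43 ± 0.17 (SE, adjusted p = 0.000936) and, with the 3 oocyte-transcript arrays left out, -1.26 (adjusted p = 0.0683).

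Sst, the gene of the neuropeptide somatostatin made by a class of interneurons that inhibit dendrites, showed the same form. It measured 9.09, 9.15 and 8.79 in CA1 cell bodies, 9.05, 9.32 and 9.04 in CA2 cell bodies, 10.73, 10.68 and 10.94 in CA1 dendrites and 9.98, 9.14 and 9.63 in CA2 dendrites. The dendritic groups did not overlap and the cell body groups did. Its interaction was -1.33 ± 0.26 (adjusted p = 0.0115), and -0.99 without the 3 arrays (adjusted p = 0.104). The RefSeq promoter table (GRCm38.p6) held 24 of the 30 matched genes taken by the naming rule, and Sst was the 1 whose window from 250 bases before to 50 after the start site contains the cAMP response element TGACGTCA. This palindrome, long known from this promoter, occurs in 507 of the 27025 promoters of the table (1.88%), searched on both strands. The Sst window, chr16:23890795-23891094 on the minus strand, is printed 5′ to 3′ with the element, which begins 48 bases before the start site, in capitals.
Sst promoter: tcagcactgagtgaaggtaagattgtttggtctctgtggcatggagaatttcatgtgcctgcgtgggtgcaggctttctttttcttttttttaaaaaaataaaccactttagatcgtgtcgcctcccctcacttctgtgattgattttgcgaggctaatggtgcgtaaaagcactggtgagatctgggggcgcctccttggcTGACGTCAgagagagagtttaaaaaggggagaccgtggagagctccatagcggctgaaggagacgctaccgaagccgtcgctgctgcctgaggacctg

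A different form was seen in genes whose RNA was lower in the dendritic than in the cell body layer of both regions, and more so in CA2. Rprml, a relative of the cell cycle regulator Reprimo, measured 9.54, 9.56 and 9.62 and 9.48, 9.60 and 9.75 in the CA1 and CA2 cell bodies, 8.85, 8.80 and 8.74 in CA1 dendrites and 7.43, 7.72 and 7.48 in CA2 dendrites. The 3 CA2 dendritic values lay more than 1 log2 below all 3 CA1 ones, with an interaction of -1.29 ± 0.13 (adjusted p = 0.000238). Nr3c2, the mineralocorticoid receptor and a gene rich in CA2, measured 10.02, 9.89 and 10.01 in CA1 cell bodies and 10.35, 10.39 and 10.29 in CA2 cell bodies, so CA2 was the higher there. In the dendritic layers the order was the other way, with 9.30, 9.33 and 9.18 in CA1 and 8.68, 8.59 and 8.61 in CA2, and no group overlapped another. Its interaction was -1.01 ± 0.10 (adjusted p = 0.0002). The secreted neuronal glycoprotein Nell2 (-1.07 ± 0.17), the semaphorin receptor Plxna1 (-0.97 ± 0.10) and Cracdl (-1.0 ± 0.13) had the same form.

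In the other direction of the layer difference, RNAs enriched in the CA1 dendritic layer were less enriched or about level in CA2. Fbxl16, which encodes an F-box protein, rose from 9.33, 9.15 and 9.42 in CA1 cell bodies to 11.16, 10.95 and 10.94 in CA1 dendrites. In CA2 it went from 9.0, 9.01 and 9.14 to 9.57, 9.72 and 9.67, so that every CA2 dendritic value lay below every CA1 one, for an interaction of -1.11 ± 0.13 (adjusted p = 0.000666). Further members of this set were the centrosomal and microtubule-binding protein Cep170b (-1.02 ± 0.10), the guanine nucleotide exchange factor Arhgef17 (-1.02 ± 0.10) and the kinesin Kifc2 (-0.95 ± 0.12). The layer difference of Cep170b was 1.37 in CA1 and 0.35 in CA2, and that of Kifc2 1.40 and 0.45. Also here were the RNA-binding Smaug protein Samd4b (-0.96 ± 0.14) and the histone deacetylase Hdac4 (-0.95 ± 0.16), whose RNA was 1.02 higher in the CA1 dendritic layer and 0.08 higher in that of CA2. Hdac4 lay near the limit for matched genes: its cell body layers differed by 0.49 (CA2 minus CA1) and its dendritic layers by -0.45. For Arhgef17 these differences were 0.47 and -0.55, so in both genes both layers entered the interaction. Fcgr3, an immunoglobulin receptor of microglia, and Mpeg1, a perforin-like protein of macrophages and microglia, had interactions of -1.10 ± 0.16 and -0.98 ± 0.15. The cell body means of Mpeg1, 4.85 in CA1 and 5.19 in CA2, lay below the median level of all features, 5.76. All 15 lower matched genes of the rule passed whichever single array was left out, and 12 of the 15 passed without the 3 arrays with oocyte transcripts, the exceptions being Thbs4, Sst and Mpeg1.

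The 15 matched genes with the highest interactions included genes of vessels, interneurons and synapses, and 13 of them were higher in the dendritic layer of both regions. Acta2, the smooth muscle actin of arterioles, measured 6.55, 6.53 and 6.32 in CA1 cell bodies and 6.55, 6.30 and 6.75 in CA2 cell bodies. Its dendritic levels were 8.72, 7.87 and 8.52 in CA1 and 9.80, 9.84 and 9.56 in CA2, without overlap, and the interaction was 1.30 ± 0.25 (adjusted p = 0.0104; 1.05 and adjusted p = 0.157 without the 3 arrays). Ndnf, a secreted neurotrophic factor that marks neurogliaform interneurons, measured 5.75, 5.43 and 5.88 and 5.81, 5.64 and 6.28 in the cell bodies of CA1 and CA2. It reached 9.28, 8.65 and 9.59 in CA1 dendrites and 10.62, 10.45 and 10.61 in CA2 dendrites, where every CA2 array was the higher, with an interaction of 1.16 ± 0.18 (adjusted p = 0.00356; 1.05 and adjusted p = 0.0553 without the 3 arrays).

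Unc13c, the synaptic vesicle priming protein Munc13-3, measured 5.16, 5.12 and 5.06 in CA1 cell bodies, 6.29, 6.30 and 6.30 in CA1 dendrites, 5.17, 5.40 and 5.22 in CA2 cell bodies and 7.35, 7.95 and 7.55 in CA2 dendrites. The CA2 dendritic values stood at least 1 log2 above all others, for an interaction of 1.17 ± 0.15 (adjusted p = 0.00144). Its cell body means, 5.11 in CA1 and 5.26 in CA2, lay below the median level of all features, 5.76. Negative features of the array averaged 5.06 and 4.78 in these layers. Arhgap29, which encodes a GTPase-activating protein, went from 6.31, 6.30 and 6.28 to 7.38, 7.20 and 7.54 in CA1 and from 6.04, 5.80 and 6.16 to 8.43, 8.14 and 8.30 in CA2. It was lower in CA2 than in CA1 cell bodies on every array and higher in CA2 dendrites, with an interaction of 1.21 ± 0.12 (adjusted p = 0.000273). Gabrb2, the β2 subunit of the GABA-A receptor, was the highest-level gene of the 15. It dropped from 10.72, 10.78 and 10.78 in CA1 cell bodies to 9.20, 9.26 and 9.68 in CA1 dendrites, and from 10.60, 10.45 and 10.54 to 10.33, 10.03 and 10.24 in CA2. The drop was smaller in CA2, an interaction of 1.05 ± 0.15 (adjusted p = 0.00269).

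The same direction was found for Idi1, the isomerase that makes the isoprenoid building block of cholesterol (1.13 ± 0.13), the substance P precursor Tac1 (1.07 ± 0.19), the mTOR inhibitor Ddit4l (1.07 ± 0.15) and the endosomal adaptor Tom1l1 (1.07 ± 0.10). Ddit4l lay at the limit for matched genes, with a cell body difference of -0.50 (CA2 minus CA1) and a dendritic difference of 0.57. Tac1 was level between the layers of CA1, at 6.54, 6.55 and 6.26 in cell bodies and 6.38, 6.82 and 6.40 in dendrites. In CA2 it rose from 6.41, 6.22 and 6.15 to 7.59, 7.20 and 7.45, so the CA2 dendritic arrays alone were high. The copper-binding ferroxidase Cp (1.05 ± 0.18), the tight junction protein Ocln (1.0 ± 0.14) and Xlr (1.0 ± 0.16) were further members. In Cp, Xlr and Pdgfd, as in Unc13c, both cell body means lay below the median level of all features, 5.76. The growth factor Pdgfd had the largest interaction of the set, 1.31 ± 0.35, but passed in only 3 of the 12 fits that each left out 1 array, with values of 0.96 to 1.57. Galnt4 and Slitrk6 passed in 4 of 12. The other 12 genes passed in all 12 fits, and 8 of the 15 passed without the 3 arrays with oocyte transcripts; Pdgfd, Acta2, Ndnf, Galnt4, Slitrk6, Ocln and Xlr did not.

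**Figure D2:**
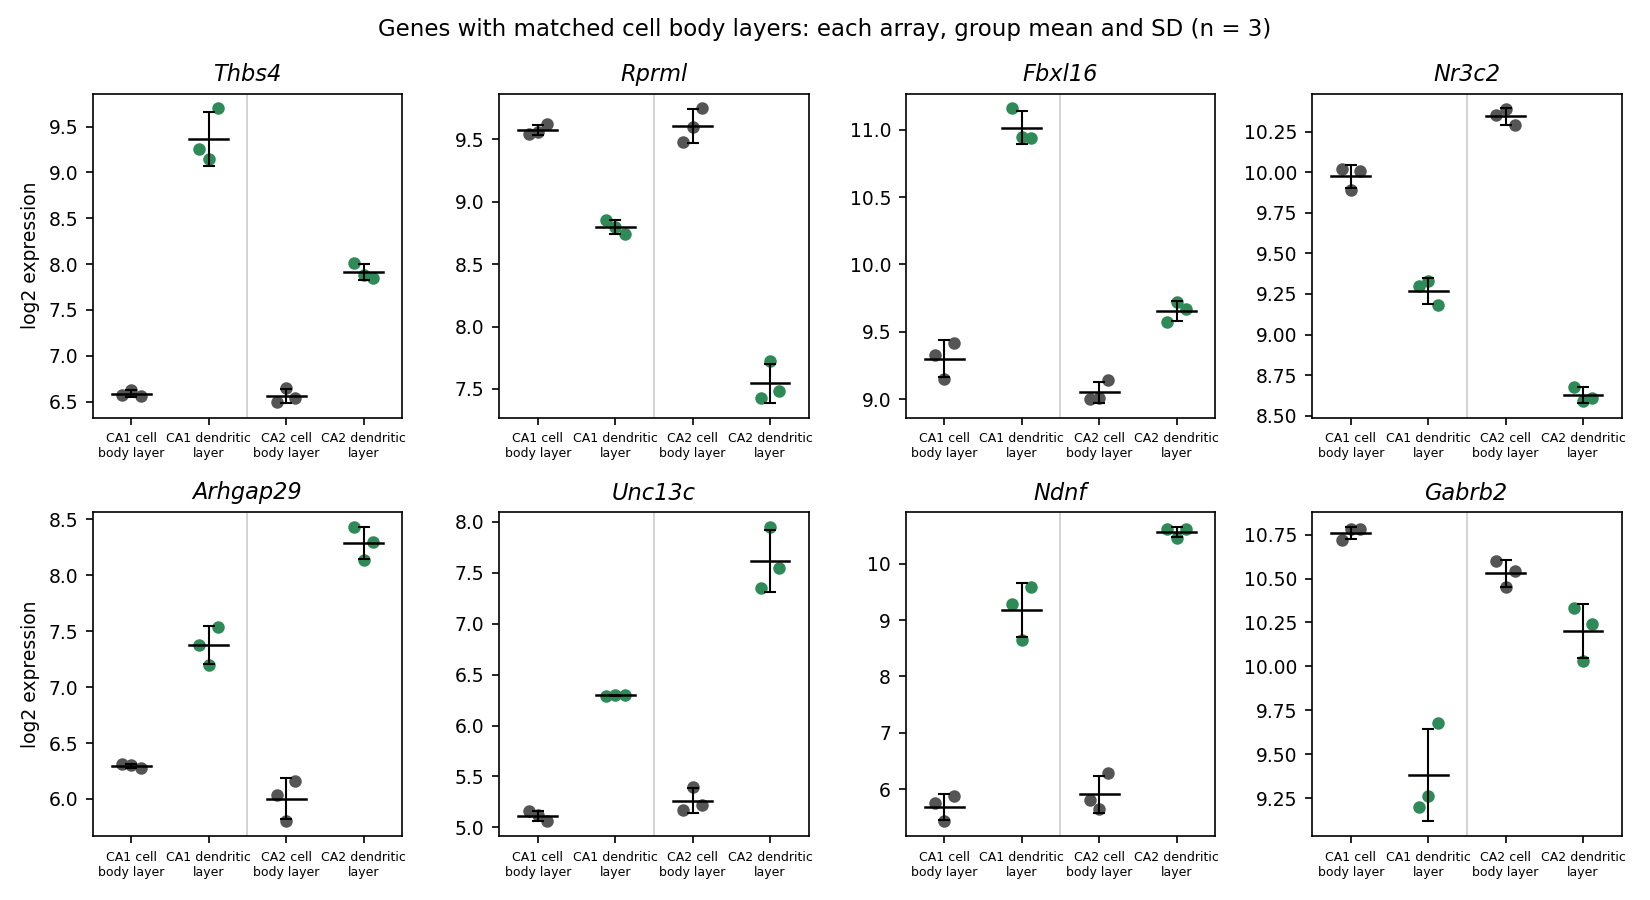
Log2 expression on each array (points) with the group mean and SD of 3 arrays (bars) for 4 matched genes with a lower interaction in CA2 (top) and 4 with a higher one (bottom), cell body layers in grey and dendritic layers in green, each panel with its own vertical range. Thbs4 sits between 6.50 and 6.65 in both cell body groups, at 9.15 to 9.70 in CA1 dendrites and at 7.85 to 8.01 in CA2 dendrites.

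In a list of messages known to be carried into dendrites, the members that passed were below 0. Of 32 measured members 17 passed lower and 0 higher (all genes 6.81% and 4.81%), and 29 of the 32 had matched cell bodies. The median interaction was -0.43 (all genes -0.11). The list is bright, with a median level of 9.52. Among the 6023 brightest genes 11.2% passed lower and 10.0% higher, with a median interaction of 0.05. The mean level of the list was 9.54 to 9.64 on the CA1 cell body arrays, 10.11 to 10.18 on the CA1 dendritic arrays, 9.38 to 9.48 on the CA2 cell body arrays and 9.53 to 9.60 on the CA2 dendritic arrays. The 17 included scaffold and signalling proteins of the postsynaptic density: Dlg4 (PSD-95; -0.46 ± 0.09), Shank2 (-0.50 ± 0.09) and the Arf exchange factor Psd (-0.92 ± 0.13). Dlg4 measured 10.0, 9.95 and 10.02 and 9.91, 9.88 and 9.96 in the CA1 and CA2 cell bodies, 10.95, 10.93 and 10.86 in CA1 dendrites and 10.34, 10.37 and 10.42 in CA2 dendrites. Its cell body groups differed by -0.07 and overlapped, and its dendritic groups did not overlap. Bsn, which encodes the presynaptic scaffold Bassoon, had the smallest p of the list (-0.89 ± 0.09, adjusted p = 0.000237), followed by the calcium sensor Hpcal4 (-0.70 ± 0.09) and Psd. Under quantile normalization 22 passed lower and 1 higher. Without CA2 cell body array 2 the lower count was 11, without any single number 4 or 5, and without the 3 arrays with oocyte transcripts 5; Dlg4, Shank2 and Hpcal4 were among those that did not pass there.

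Camk2a, Map2 and Ddn, which are among the best known dendritic messages, did not pass. Camk2a, the kinase subunit of the postsynaptic density, measured 12.27, 12.24 and 12.23 in CA1 cell bodies, 12.92, 13 and 12.96 in CA1 dendrites, 12.11, 12.10 and 12.13 in CA2 cell bodies and 12.76, 12.81 and 12.80 in CA2 dendrites. Its layer difference was 0.71 in CA1 and 0.68 in CA2, for an interaction of -0.04 ± 0.08 (adjusted p = 0.775). Map2, the microtubule protein of dendrites, had 0.32 ± 0.09 (adjusted p = 0.0531), and Ddn, which encodes dendrin, -0.56 ± 0.18 (adjusted p = 0.0736).

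Messages that mostly stay in the cell body also passed mainly below 0 (all genes 4.81% higher and 6.81% lower). Of 20 somatic neuronal RNAs, 11 passed lower and 1, the growth cone protein Gap43 (0.46 ± 0.11; it passed in 6 of the 12 fits that each left out 1 array), higher, with a median of -0.41. Among the 11 were the microtubule regulator Stmn2 (-0.71 ± 0.10), the tubulin Tubb2b (-1.20 ± 0.17) and the ubiquitin hydrolase Uchl1 (-0.65 ± 0.10). Stmn2 was -0.52 in the layer difference of CA1 and -1.23 in that of CA2. Transcription factors of pyramidal neurons, whose messages serve a nuclear protein, gave 6 lower and 0 higher of 12, with a median of -0.56. Bcl11b (-0.68 ± 0.11), Fezf2 (-0.59 ± 0.11) and Neurod6 (-0.61 ± 0.14) were among the 6. Neurod6 measured 12.22, 12.38 and 12.29 and 11.85, 11.80 and 11.79 in the cell bodies of CA1 and CA2, 9.69, 9.90 and 9.59 in CA1 dendrites and 8.77, 8.79 and 8.33 in CA2 dendrites. Without the 3 arrays with oocyte transcripts 0 members passed in either list. The somatic count was 5 to 7 without CA1 dendritic array 1, any CA1 cell body array, CA2 cell body array 2 or 3, or CA2 dendritic array 1 or 3, and the transcription factor count 2 or 3 without CA1 cell body array 1 or 2, CA2 cell body array 2 or CA2 dendritic array 1. Levels of the transcription factor list were 8.29 to 8.40 on the CA1 dendritic arrays and 7.88 to 8.01 on the CA2 dendritic arrays, against 8.69 to 8.73 on the CA1 cell body arrays. The part of a smaller amount of pyramidal RNA in the CA2 dendritic samples in the interactions below 0 was not tested. In captured tissue, fewer cells of a type and less RNA per cell cannot be told apart.

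**Figure D3:**
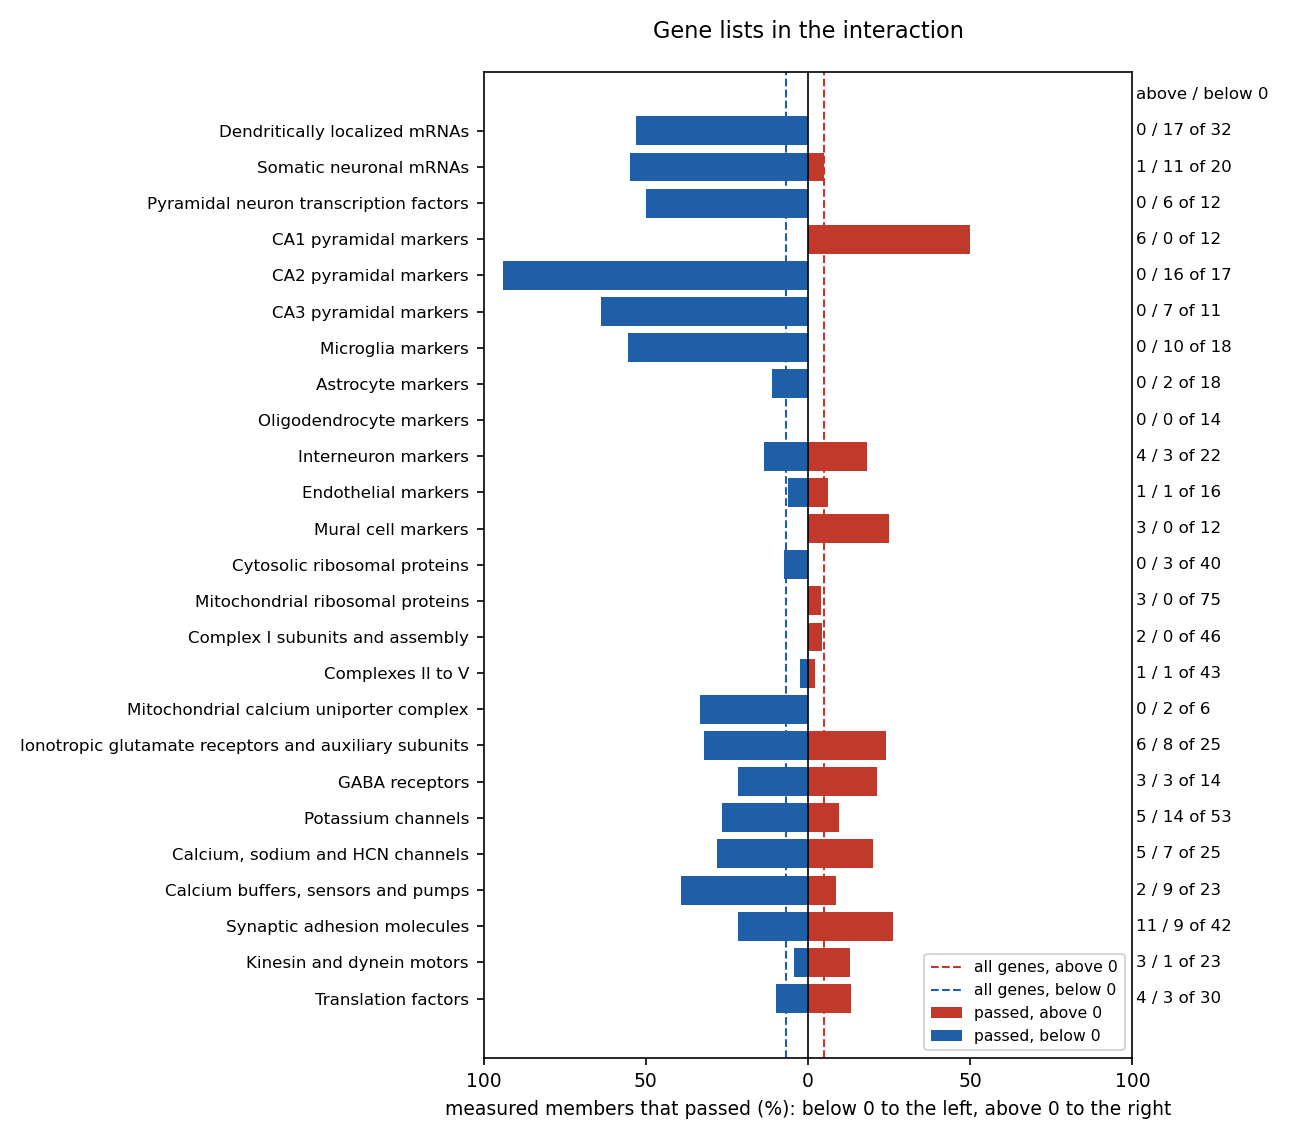
Bars give the share of each list's measured members that passed the interaction test, lower in CA2 to the left in blue and higher to the right in red, with the counts beside each row. Dashed lines mark the shares among all genes, 6.81% lower and 4.81% higher; microglia markers (10 of 18 lower) and dendritic RNAs (17 of 32 lower) stand far to the left of theirs.

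Of the glial lists, microglia markers held the most genes that passed, 10 lower and 0 higher of 18 (all genes 6.81% and 4.81%). Their median was -0.47, and 17 of the 18 were below 0. Their mean level was 6.83 to 6.89 on the CA1 and 6.89 to 6.94 on the CA2 cell body arrays, 9.02 to 9.16 on the CA1 dendritic arrays and 8.71 to 8.75 on the CA2 dendritic arrays. The 10 were Cx3cr1, P2ry13, Tmem119, Itgam, C1qa, C1qb, C1qc, Trem2, Fcrls and Laptm5, all with matched cell bodies. Itgam, the integrin subunit CD11b, measured 6.49, 6.49 and 6.51 and 6.64, 6.66 and 6.71 in the cell bodies of CA1 and CA2, 8.72, 8.81 and 8.79 in CA1 dendrites and 8.09, 8.45 and 8.25 in CA2 dendrites. The interaction was -0.68 ± 0.11 (adjusted p = 0.00412, and 0.0362 without the 3 arrays). C1qa, a chain of complement C1q, had -0.82 ± 0.14 (adjusted p = 0.00581, and 0.02 without the 3 arrays). Without the 3 arrays with oocyte transcripts 2 members passed. The count was 6 without CA1 cell body array 1, CA2 cell body array 1 or CA2 dendritic array 2 or 3, and 5 without CA1 cell body array 3 or CA2 cell body array 2 or 3.

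The promoters of these microglia genes were searched because all 10 passed in the same direction. The part of any promoter element in the interaction was not tested. The RefSeq table held 8 of the 10, and 3 of the 8 windows contain AGGAAGT, the core letters bound by PU.1, the transcription factor that specifies macrophages and microglia, or its reverse complement ACTTCCT. This string occurs in 2587 of 27025 promoters (9.57%) on either strand, and overlaps no other motif searched apart from its own longer form with a leading G, which is in 1 of the 8 and in 3.28% of all promoters. Of these 3 genes, C1qb passed in 3 of the 12 fits that each left out 1 array, C1qc in 5 and Fcrls in 12. Without the 3 arrays with oocyte transcripts their interactions were -0.67, -0.65 and -0.67. The 3 windows are on the minus strand of GRCm38.p6, C1qb at chr4:136886151-136886450, C1qc at chr4:136892865-136893164 and Fcrls at chr3:87263475-87263774. They are printed 5′ to 3′ with the match, which lies on the opposite strand of each, in capitals.
C1qb promoter: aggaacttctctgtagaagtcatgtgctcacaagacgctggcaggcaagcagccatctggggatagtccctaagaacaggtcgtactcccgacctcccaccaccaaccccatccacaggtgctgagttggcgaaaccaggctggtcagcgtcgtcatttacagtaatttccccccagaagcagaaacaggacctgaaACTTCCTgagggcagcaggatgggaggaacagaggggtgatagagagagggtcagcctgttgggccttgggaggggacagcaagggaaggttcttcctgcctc
C1qc promoter: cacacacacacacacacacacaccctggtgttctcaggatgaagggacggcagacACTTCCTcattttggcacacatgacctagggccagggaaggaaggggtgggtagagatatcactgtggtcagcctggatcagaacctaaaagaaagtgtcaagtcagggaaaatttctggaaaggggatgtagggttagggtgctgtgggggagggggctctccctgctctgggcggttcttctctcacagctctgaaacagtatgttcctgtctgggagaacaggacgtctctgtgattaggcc
Fcrls promoter: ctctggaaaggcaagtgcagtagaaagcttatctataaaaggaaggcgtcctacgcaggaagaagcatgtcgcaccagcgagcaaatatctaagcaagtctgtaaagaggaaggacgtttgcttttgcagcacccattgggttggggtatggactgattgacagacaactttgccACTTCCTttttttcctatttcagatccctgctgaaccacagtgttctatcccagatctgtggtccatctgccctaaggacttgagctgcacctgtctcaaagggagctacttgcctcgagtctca

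Astrocyte markers mostly did not pass: of 18 measured, 2 passed lower and 0 higher (all genes 6.81% and 4.81%), with a median of -0.12. The 2 were S100b (-1.52 ± 0.12), a calcium-binding protein, and Ntsr2 (-1.21 ± 0.09), a neurotensin receptor, whose cell body layers were 1.03 and 1.13 higher in CA2. Gfap, the astrocyte filament protein, was 3.28 higher in the dendritic layer of CA1 and 3.24 higher in that of CA2 (interaction -0.04 ± 0.15, adjusted p = 0.866). Of 14 oligodendrocyte markers 0 passed in either direction, with a median of -0.06, and Mbp, the myelin basic protein, had -0.19 ± 0.15. Without CA1 dendritic array 3, 3 oligodendrocyte markers passed higher. The mean level of the list was higher in CA2 in both layers, 7.66 to 7.75 against 7.01 to 7.17 in the cell body layers and 8.96 to 9.15 against 8.32 to 8.62 in the dendritic layers.

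Interneuron markers went both ways, with 4 higher and 3 lower of 22 (all genes 4.81% and 6.81%) and a median of 0.21. Beside Ndnf, the extracellular matrix protein Reln, which neurogliaform and other dendrite-targeting interneurons secrete, was higher: it measured 6.07, 5.92 and 5.86 and 6.30, 6.37 and 6.51 in the cell bodies of CA1 and CA2, 7.61, 7.40 and 7.97 in CA1 dendrites and 9.21, 8.87 and 9.08 in CA2 dendrites. Each CA2 dendritic value lay above each CA1 one, an interaction of 0.95 ± 0.17 (adjusted p = 0.00715, and 0.0999 without the 3 arrays with oocyte transcripts). Sst was lower, as were the growth factor receptor Kit (-0.89 ± 0.16) and the neuropeptide Cck (-0.53 ± 0.12), both with more RNA in the cell body layer of each region. Npy, a peptide shared by neurogliaform and Sst cells, had 0.16 ± 0.19 and did not pass (adjusted p = 0.559). The GABA-synthesizing enzyme Gad1 (0.52 ± 0.13) passed in 6 of the 12 fits that each left out 1 array. Without CA1 cell body array 1 or 2, CA2 cell body array 1 or 3 or CA2 dendritic array 2 the count of higher members was 2, and without the 3 arrays with oocyte transcripts it was 0 in both directions.

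Vascular lists held few genes that passed: 1 higher and 1 lower of 16 endothelial markers, and 3 higher and 0 lower of 12 mural cell markers, with medians of -0.01 and 0.05. The shares over all genes were 4.81% higher and 6.81% lower. The endothelial gene above 0 passed in 0 of the 12 fits that each left out 1 array, and neither endothelial gene passed without the 3 arrays with oocyte transcripts. The mural genes were Acta2, Tagln (0.54 ± 0.13) and Higd1b (0.49 ± 0.12), contractile or pericyte genes. The mural list's median was about 0 (-0.01) after quantile normalization. Its count was 1 without CA1 cell body array 2 or 3, CA2 cell body array 1 or CA2 dendritic array 1, and 0 without the 3 arrays with oocyte transcripts.

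The study's title names mitochondrial function in CA2, and lists of mitochondrial genes were therefore followed. Of 75 mitochondrial ribosomal proteins 3 passed higher and 0 lower, of 46 subunits and assembly factors of complex I 2 higher and 0 lower, and of 43 members of complexes II to V 1 in each direction. These shares are below or near those of all genes (4.81% higher and 6.81% lower), and the medians were 0.01, 0.14 and 0.03, turning to between -0.06 and -0.01 after quantile normalization. The ribosomal genes were Mrps9 (0.66 ± 0.09), Mrpl47 (0.69 ± 0.13) and Mrpl11 (0.64 ± 0.13). Mrps9 went from 8.64, 8.71 and 8.63 in CA1 cell bodies to 7.54, 7.50 and 7.42 in CA1 dendrites, and from 8.53, 8.53 and 8.37 to 7.93, 8.06 and 7.89 in CA2, so every CA2 dendritic value lay above every CA1 one. Leaving out CA1 dendritic array 3 raised the count of the ribosomal list to 9, and without the 3 arrays with oocyte transcripts it was 1 (Mrpl47). In the lists of complex I and of complexes II to V, with 1 or 2 genes that passed, most single arrays left out moved the count, over 0 to 5 and 0 to 3.

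The mitochondrial calcium uniporter, which lets calcium into the organelle, gave 2 lower of 6 members (all genes 6.81%), both with cell bodies apart. Mcu, the channel pore, measured 7.35, 7.36 and 7.34 in CA1 cell bodies and 8.20, 8.33 and 8.46 in CA2 cell bodies, while its dendritic levels were 7.29, 7.20 and 7.07 in CA1 and 7.20, 7.15 and 7.19 in CA2. The cell body groups stood 0.98 apart and the dendritic groups overlapped, giving an interaction of -0.99 ± 0.12 (adjusted p = 0.000862; -1.11 and 0.0274 without the 3 arrays). Its regulator Mcur1 had -0.69 ± 0.12 in the same form, and did not pass without the 3 arrays (adjusted p = 0.151); the remaining 4 of the 6 measured members did not pass in the first place. Cytosolic ribosomal proteins, which make up much of the message of dendrites, gave 3 lower and 0 higher of 40 (all genes 6.81% and 4.81%). Their median was 0.00 (-0.08 after quantile normalization), and 0 passed in most fits that left out 1 array.

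Synaptic receptors and channels divided in both directions. Of 25 ionotropic glutamate receptor subunits and auxiliary proteins 6 passed higher and 8 lower (all genes 4.81% and 6.81%). The median was -0.18 (all genes -0.11), and 3 of the 6 and 4 of the 8 had matched cell bodies. The auxiliary subunits of AMPA receptors Cacng3 (1.22 ± 0.22) and Cacng5 (-3.12 ± 0.14) went opposite ways, with cell body differences of -2.27 and 3.21 (CA2 minus CA1). Grin3a, an NMDA receptor subunit, was -0.72 in the cell body difference and 0.29 in the dendritic difference, an interaction of 1.01 ± 0.11 (adjusted p = 0.000446). Neto1, an auxiliary protein of kainate receptors, had -1.33 ± 0.15, and the kainate receptor subunit Grik4 -1.66 ± 0.11. Without the 3 arrays with oocyte transcripts 0 members passed higher (Grin3a at an adjusted p of 0.0531) and 4 lower, and the count of higher members was 3 without CA1 cell body array 2, CA2 cell body array 3 or CA2 dendritic array 1.

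GABA receptors gave 3 in each direction of 14 (all genes 4.81% higher and 6.81% lower). Beside Gabrb2, the γ3 subunit Gabrg3 was higher (1.59 ± 0.22), from a layer difference of -0.96 in CA1 to 0.62 in CA2 (adjusted p = 0.00217, and 0.0586 without the 3 arrays with oocyte transcripts). The GABA-B receptor subunit Gabbr2 was lower, with matched cell bodies: it measured 10.48, 10.43 and 10.39 and 10.80, 10.81 and 10.83 in the cell bodies of CA1 and CA2, 9.84, 9.76 and 9.97 in CA1 dendrites and 9.34, 9.53 and 9.33 in CA2 dendrites. Every CA2 dendritic value lay below every CA1 one although the cell body values were the higher in CA2, and the interaction was -0.84 ± 0.11 (adjusted p = 0.00176; -0.93 and 0.0406 without the 3 arrays).

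Of 53 potassium channel genes 14 passed lower and 5 higher (all genes 6.81% and 4.81%), with a median of -0.28 (all genes -0.11). Matched cell bodies were found in 8 of the 14 and 1 of the 5. Kcnh1 (-1.44 ± 0.12) and Kcnq5 (-1.16 ± 0.10), pore-forming subunits, were lower, and Kcnab1, a cytoplasmic subunit, higher (1.57 ± 0.15). The cell bodies of these 3 genes were apart, by 1.27, 1.39 and -2.11 (CA2 minus CA1). Without CA1 dendritic array 1, any CA1 cell body array or CA2 cell body array 2 or 3 the count of lower members was 8 or 9, and without the 3 arrays with oocyte transcripts 5. Calcium buffers, sensors and pumps gave 9 lower and 2 higher of 23, with a median of -0.34. Matched cell bodies were found in 4 of the 9 and 0 of the 2. The 9 included the calmodulin regulator Pcp4 and the EF-hand proteins Necab2 (-1.76 ± 0.11) and Scgn (-2.04 ± 0.14). Calb1, the buffer calbindin, was among the 2. The cell body layers of Pcp4 and Calb1 differed by 3.79 and -2.59 (CA2 minus CA1). Synaptic adhesion molecules were split, 11 higher and 9 lower of 42 with a median of -0.11. Only 3 of the 11 and 3 of the 9 had matched cell bodies. The latrophilin Adgrl2 (2.42 ± 0.13) and the teneurin Tenm1 (1.76 ± 0.14) were above 0, and Lrrtm4 (-2.54 ± 0.22) and Amigo2 below it. For Adgrl2 the cell body layers differed by -3.29 (CA2 minus CA1). In the calcium list 5 genes passed lower without the 3 arrays with oocyte transcripts, and in the adhesion list 6 passed higher and 5 lower; after quantile normalization 15 calcium genes and 14 adhesion genes passed lower.

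Among receptors for peptides, amines and steroids, 4 passed higher and 8 lower of 34 (all genes 4.81% and 6.81%). Matched cell bodies were found in 0 of the 4 and 3 of the 8. The vasopressin receptor Avpr1b, through which CA2 acts in social behaviour, measured 5.87, 5.90 and 5.89 in CA1 cell bodies, 6.08, 6.19 and 6.07 in CA1 dendrites, 7.0, 7.19 and 7.09 in CA2 cell bodies and 5.87, 5.84 and 5.84 in CA2 dendrites. It was high on the CA2 cell body arrays alone, and its interaction was -1.47 ± 0.09 (adjusted p = 1.81e-05). The oxytocin receptor Oxtr had the same form with -0.81 ± 0.14 (adjusted p = 0.00569, and 0.143 without the 3 arrays with oocyte transcripts). The glucocorticoid receptor Nr3c1 went opposite to the mineralocorticoid receptor: it was -1.17 in the cell body difference and -0.07 in the dendritic difference, an interaction of 1.10 ± 0.14 (adjusted p = 0.000985; 1.0 and 0.0596 without the 3 arrays).

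Where cell bodies were apart, the regional markers gave most of the genes that passed in their lists. Of 17 CA2 pyramidal markers 16 passed lower and 0 higher, with a median of -1.47. Of 12 CA1 markers 6 passed higher and 0 lower, with a median of 0.90 (all genes 4.81% higher and 6.81% lower). These lists were picked for a regional difference of level, so their direction here is not independent evidence. Their cell body layers differed by a median of 2.10 for the CA2 markers, and their dendritic layers by 0.09. Amigo2, the reporter's own gene, measured 6.81, 6.89 and 7.01 in CA1 cell bodies, 7.19, 6.97 and 6.95 in CA1 dendrites, 9.60, 9.65 and 9.94 in CA2 cell bodies and 7.36, 7.43 and 7.22 in CA2 dendrites, high in CA2 cell bodies alone, for an interaction of -2.53 ± 0.16 (adjusted p = 1.81e-05). Cacng5 was alike, at 9.70, 9.61 and 9.62 in CA2 cell bodies and between 6.12 and 6.54 on the other 9 arrays. The BMP antagonist Sostdc1 (-2.84 ± 0.11), Tmem215 (-2.86 ± 0.18) and the RGS protein Rgs14, a suppressor of synaptic potentiation in CA2 (-1.11 ± 0.10), followed. For the matrix proteins of perineuronal nets Acan (-1.67 ± 0.10) and Hapln4 (-1.48 ± 0.12) the dendritic layers differed by -0.02 and -0.02 and the cell body layers by 1.65 and 1.46.

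Man1a, a mannosidase of the Golgi, had the highest interaction of all named genes, 2.71 ± 0.12 (adjusted p = 4.15e-06). It was high on the CA1 cell body arrays alone, at 10.04, 10.12 and 10.09, and lay at 7.59, 7.52 and 7.70 in CA1 dendrites, 7.05, 7.17 and 7.15 in CA2 cell bodies and 7.32, 7.53 and 7.22 in CA2 dendrites. Wfs1, an endoplasmic reticulum protein of CA1 cells, had 0.99 ± 0.21 (adjusted p = 0.0159, and 0.158 without the 3 arrays with oocyte transcripts) and regional differences of -2.72 in the cell body and -1.73 in the dendritic layers. The secreted synaptic organizer C1ql3 (2.59 ± 0.31, adjusted p = 0.0502 without the 3 arrays) and the nuclear adaptor Ldb2 (2.21 ± 0.18) also had high interactions, with levels lowest in CA2 cell bodies and layer differences of opposite sign, -1.70 in CA1 and 0.88 in CA2 for C1ql3 and -0.79 and 1.43 for Ldb2. Pou3f1, a transcription factor on the CA1 list, did not pass (0.09 ± 0.14). Of the 1158 genes with cell bodies apart that passed, 24 had an interaction with the sign of their cell body difference.

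In 352 genes (1.17% of those tested) the layer difference passed in opposite directions in CA1 and CA2, and the interaction passed in every one. A total of 195 (0.647%) were up toward the dendrites of CA1 and down toward those of CA2, and 157 (0.521%) the reverse. The genes named from these are the 6 of each direction whose smaller absolute layer difference was largest. Cpne4, a copine that binds membranes in response to calcium and a marker of CA3, had the most negative interaction of the named genes, -3.43 ± 0.23 (adjusted p = 2.86e-05). It rose from 6.40, 6.19 and 6.21 to 7.65, 7.26 and 8.14 in CA1 and dropped from 11.33, 11.23 and 11.26 to 9.29, 9.34 and 9.14 in CA2, and no group overlapped another. The cysteine protease Ctsc (1.32 in CA1 and -1.24 in CA2), the proteoglycan Spock1 (1.23 and -1.20), the synaptic adhesion protein Lrrtm4 (1.44 and -1.10), the membrane anchor Efr3b (1.02 and -1.06) and Nrip3 (1.70 and -0.93) had the same form. Pcp4, which encodes a regulator of calmodulin, had a layer difference of 2.21 in CA1 and -0.75 in CA2.

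Calb1 had the reverse form. Its CA1 cell body values were 9.35, 9.32 and 9.33, its CA1 dendritic values 7.93, 8.22 and 8.69, its CA2 cell body values 6.08, 7.20 and 6.94 and its CA2 dendritic values 8.30, 8.27 and 8.02. The dendritic layers overlapped between regions, and the interaction was 2.51 ± 0.32 (adjusted p = 0.00125; 2.53 and 0.02 without the 3 arrays). The latrophilin Adgrl2, a synaptic adhesion receptor (-1.42 in CA1 and 1.0 in CA2), the GTPase-activating protein Arhgap12 (-1.29 and 1.02), the exchange factor Plekhg1 (-1.15 and 1.05), the actin-binding Anln (-0.94 and 0.99) and the sialomucin Cd34, best known from vessels and blood stem cells (-0.90 and 1.25), were alike. All 12 of these genes passed in each fit that left out 1 array and without the 3 arrays with oocyte transcripts, while the count of 352 was 150 without those 3 arrays and 228 without CA1 cell body array 2.

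**Figure D4:**
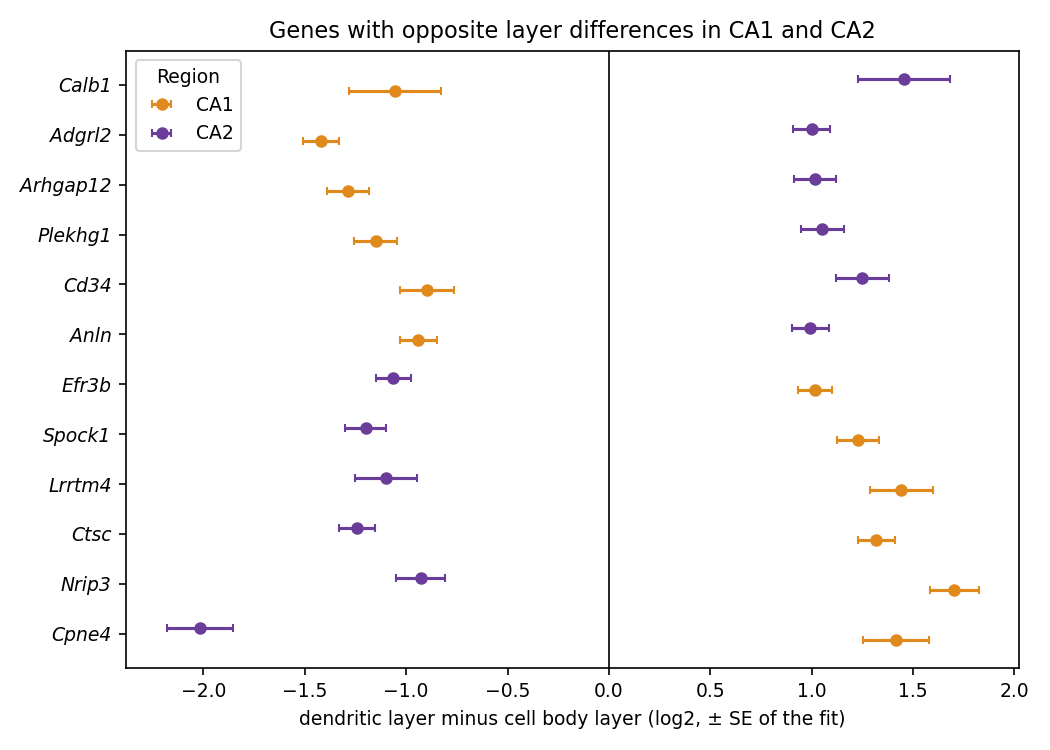
Dendritic minus cell body layer difference (log2) in CA1 (orange) and CA2 (purple) with the SE of the fit, for the 6 genes of each direction whose smaller absolute layer difference was largest. Each gene has one point on either side of 0, from Cpne4 at the bottom, 1.42 in CA1 and -2.02 in CA2, to Calb1 at the top, -1.05 and 1.46.

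The share of genes that passed grew with level, from 5.2% of the 6031 dimmest genes to 21.2% of the 6023 brightest, and the median interaction moved from -0.17 to 0.05. Of 19046 protein-coding genes 1053 passed higher and 1694 lower, a share of 14.4% (11.6% of all genes, with 4.81% higher and 6.81% lower). Small nuclear RNA genes passed in 11.3%, with 92 higher and 11 lower of 914, and 85 of the 92 had cell bodies apart. Near the 0.5 limit the division is arbitrary: Baalc, Cfap45 and Chgb fell just inside, with interactions of -0.71, -0.50 and -0.70, and Mbnl1, Medag and Rab27a just outside, with 0.46, -0.61 and -0.60. The labels do not state which mouse an array number stands for, and p-values measure the spread between these arrays.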

How the data were processed

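The deposited values are log2 expression values that the authors made with RMA (background correction, quantile normalization and probe summary); the submitters' processing notes, the source of this statement, name no software version, and whether both runs were normalized together is not given in the sources used here. RMA compresses small values toward background, so differences of dim genes are understated. Per the labels' protocols, each piece came from about 20 caps of 5 sections, and 5 to 7 ng of RNA was amplified. Of 72688 features, 30604 had 1 gene symbol in the platform annotation; 22818 were matched to RefSeq by Entrez identifier, which changed 827 symbols. The feature with the highest mean was kept for each gene, leaving 30142.

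One limma fit (version 3.58.1, R 4.3.3; lmFit and eBayes, two-sided) covered 12 arrays, with a mean for each of 4 groups plus a block for the array number. Benjamini-Hochberg adjustment ran over 30142 genes. The script was tested on simulated data. The lists, members and naming rule were chosen with earlier results of these data known. The rule took the 15 highest and 15 lowest interactions of matched genes, 8 and 8 of genes with cell bodies apart, 6 and 6 with opposite layer differences by the smaller absolute one, up to 3 of each list by p, and 12 set genes; predicted genes, small RNAs and chemosensory receptors were not named. Of the named genes Dlg4, Shank2, Gap43, C1qb, C1qc, Cx3cr1, P2ry13, Tmem119, Trem2, Laptm5, Npy, Cck, Gad1, Cacng3, Neto1, Oxtr, Nr3c1, Fdps, Sqle, Lss, Cyp51, Nsdhl, Hmgcs1 and Fdft1 were named after their values were seen. Alternatives changed normalization, filter, block, weights and arrays.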

Additional observations from a re-analysis of the deposited data

Results flagged for a closer look

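The interaction passed in 3504 genes, which is a test of a difference between the layer differences of CA1 and CA2. In 352 of them the layer differences also passed in opposite directions. Given here are 12 of these genes, the 6 of each direction whose smaller absolute layer difference was largest. Where the layer difference was the higher in CA1, the interactions were -3.43 (Cpne4), -2.56 (Ctsc), -2.43 (Spock1), -2.54 (Lrrtm4), -2.08 (Efr3b) and -2.63 (Nrip3). Where it was the higher in CA2, they were 2.20 (Plekhg1), 2.51 (Calb1), 2.30 (Arhgap12), 2.42 (Adgrl2), 1.93 (Anln) and 2.15 (Cd34). The level itself can go the other way: Cpne4 was higher in CA2 in both layers, and Adgrl2 in CA1.

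Signals also appeared in data outside the main measurement. The 27 oocyte genes had a mean log2 level of 7.27 on CA2 cell body array 1, 7.31 on CA2 dendritic array 2 and 7.22 on CA2 dendritic array 3, and 5.45 to 5.87 on the other arrays. The poly-A controls, which are not mouse RNA, had an interaction of 3.69. Of 33206 features without a gene name here, fitted on their own, 2600 passed in the interaction (7.83%), 2093 higher and 507 lower in CA2. The part of these signals in the results was not tested.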

How the results depend on the processing

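Every one of the 3504 interactions kept its sign under each alternative in which the gene was tested. The genes were chosen for passing on these arrays, and the alternatives reuse the same arrays. The kept sign is therefore a description and not independent evidence. Adjusted over every feature of the table, 1995 genes passed, 1113 of them matched, and 214 had opposite layer differences. Without the 3 arrays with oocyte transcripts these counts were 699, 235 and 150, and 5707 genes passed in the layers of CA2. Requiring 1 log2 left 418 genes, and a cell body limit of 0.25 left 1511 matched genes. Without one replicate number, or one array, the count of genes that passed ranged from 697 to 4878, of matched genes from 176 to 3637, of opposite genes from 136 to 419, of the CA1 layer difference from 9706 to 14706 and of the CA2 layer difference from 7986 to 10609. These fits have fewer arrays. Quantile normalization gave 3895 genes, with 1177 higher (30.2%, against 41.4%), median centring 3079 and array weights by group, added after the data were seen, 3395.

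The residuals of 18 pairs of arrays that share a number gave correlations of -0.35 to 0.13, of which 1 exceeded 0.1. For 36 pairs with other numbers they were -0.13 to 0.25, of which 6 did. Residuals from a mean of 3 arrays sum to 0 in each group. The correlations of same-numbered and other pairs are therefore not independent of each other. No greater likeness of arrays that share a number was seen in them. The labels do not state whether arrays of one number came from the same mouse. Fits without the number as a replicate block gave 4387 genes that passed, which held 3378 of the 3504, with 3146 matched and 411 opposite genes. The 3 arrays a group limit what could be detected, and a gene that did not pass is not shown to be equal between regions.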

Other observations

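Enzymes of sterol synthesis, which neurons and glia need for membranes, were looked at after the value of Idi1 had been seen, so their counts are a description. Of 20 enzymes from acetyl-CoA to cholesterol 15 were measured; 6 passed in the interaction with a higher value in CA2 (4.81% of all genes did) and 0 with a lower one, with a median of 0.33 against -0.11 for all genes. Beside Idi1 these were Fdps (0.74 ± 0.17), Sqle (0.50 ± 0.10), Lss (0.49 ± 0.10), Cyp51 (0.55 ± 0.10) and Nsdhl (0.43 ± 0.12), all with matched cell bodies. Sqle, squalene epoxidase, measured 8.42, 8.42 and 8.36 in CA1 cell bodies and 8.38, 8.48 and 8.54 in CA1 dendrites, and rose from 8.73, 8.62 and 8.64 to 9.25, 9.25 and 9.20 in CA2. Hmgcs1, at the head of the pathway, had 0.14 ± 0.11 and did not pass (adjusted p = 0.409), nor did squalene synthase Fdft1 (0.33 ± 0.11, adjusted p = 0.0769). Over fits that each left out 1 array the count was 4 to 6, and without the 3 arrays with oocyte transcripts it was 1, Idi1 (1.11, adjusted p = 0.0261).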
